A study of Brassica rapa subsp. pekinensis with 6 samples.

Results

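In the microarray data of *Brassica rapa* ssp. *pekinensis* (Chinese cabbage), 113 genes had their peak at 28 °C in both inbred lines and were outside the lists of genes that the study printed. They were chosen by 3 conditions. Probe intensity (PI, the linear brightness of a gene's probes) was over 500 in at least 1 of 6 samples, PI at 28 °C was at least 2 times that at 12 °C and at least 2 times that at 22 °C in both lines, and the gene was not in the study's lists of HT adaptation and heat responsive genes. Of 41173 genes on the array, 26948 passed the intensity minimum, and 142 of these (0.527%) had all 4 ratios at 2 or above. The lists, together with the MYB-like factor gene Bra006853, held 29 of the 142, which left the 113 genes described here, or 0.419% of the detected genes.

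The samples came from Chiifu, a line from temperate regions, and Kenshin, a line from subtropical and tropical regions that is used as a source of heat tolerance. Shoots of 5 plants were taken for a sample after 3 weeks of growth at 22 °C, after a further 2 days at 12 °C, and after those 2 days followed by 3 h at 28 °C. All plants were kept in one photoperiod, and the 28 °C plants of both lines had passed through the cold. The labels name 1 sample for each line and temperature. The submitters also speak of replicates. The paper states that the experiment was repeated on RNA prepared independently from biological replicates, and that means were tabulated. For the listed genes that were compared, deposited and printed intensities were equal after rounding. A deposited value may thus be a mean over replicates, but the sources used here do not say so outright, and no values of single replicates were available. A PI value therefore had no error here, and a ratio within a line had no test. Warming means 28 against 12 °C, minor warming 28 against 22 °C, and LT (low temperature) 12 against 22 °C, and these comparisons share samples.

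Plants sense a rise in ambient temperature through light and temperature receptors and through the state of their proteins. Heat shock transcription factors then raise chaperone genes, whose products refold or clear damaged proteins, while factors of the PIF family redirect growth through auxin. None of the 113 identifiers was annotated in the sources used here, so they are given by the identifier of the Chiifu gene model alone, with no function. No sequence is shown for them, and the labelled tissue was not checked against marker genes for the same reason.

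Quartiles of PI were nearly equal in the 6 samples, with medians over all genes between 965 and 1034. The array's random-sequence control had PI of 26.9 to 30.5. Of the 14 control features for transgene markers, 12 read above 100 in every sample. Their ratio of 28 to 12 °C in Chiifu lay between 1.29 and 1.94, and that of 28 to 22 °C between 1.09 and 2.24, so that all 12 were higher at 28 °C. In Kenshin the same ratios ran from 0.715 to 5.65 and from 0.855 to 2.02, with medians of 0.962 and 1.19. No marker feature had all 4 ratios at 2 or above. Both ratios reached 2 in Chiifu for 2.56% of detected genes and in Kenshin for 2.42%. In Chiifu, 89 of the 113 genes exceeded the highest marker ratio in both comparisons. In Kenshin, 24 did, where 24 exceeded the highest marker ratio by warming and 112 that by minor warming. The genes were chosen for ratios of at least 2, and 3 of the 4 highest marker ratios were 1.94, 2.02 and 2.24. Counts against these 3 values follow largely from the choice, and no count here is independent of it. The matching shares of detected genes were not computed. Only 2 features, with the same marker number, had Kenshin ratios by warming at 2 or above (5.21 and 5.65). The next highest was 1.42. The 12 features come in pairs of the same marker number, so they are not 12 separate controls. When each sample was scaled to the same median of these 12 features, a choice made after seeing the data, 33 of the 113 genes kept all 4 ratios at 2 or above and 80 did not. The 2 features with high Kenshin ratios enter this median. At 22 °C in Kenshin they read 585 and 537, where the median was 458, and the median without them was not computed.

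The 113 genes were mostly of low intensity until 28 °C. In Chiifu the median PI of the group went from 462 (22 °C) to 352 (12 °C) and then to 1642 (28 °C). The Kenshin medians in the same order were 359, 344 and 1658. The median over all detected genes stayed between 3179 and 3258 in the 6 samples. PI was at or under 500 in all 4 samples taken before 28 °C for 49 of the 113 genes (43.4%), against 2.41% of all detected genes. This share follows in part from the choice, because a gene of low intensity passed the minimum only by being high at 28 °C. Of these 49 genes, 26 were over 500 at 28 °C in both lines, 18 in Chiifu alone and 5 in Kenshin alone. At the other end, 33 genes were over 500 in all 6 samples (29.2%, against 77.4% of detected genes), and 31 were over 500 in some of the samples before 28 °C. At 28 °C, 62 of the 113 genes were over 1000 in both lines and 12 were over 5000 in both.

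**Figure D1:**
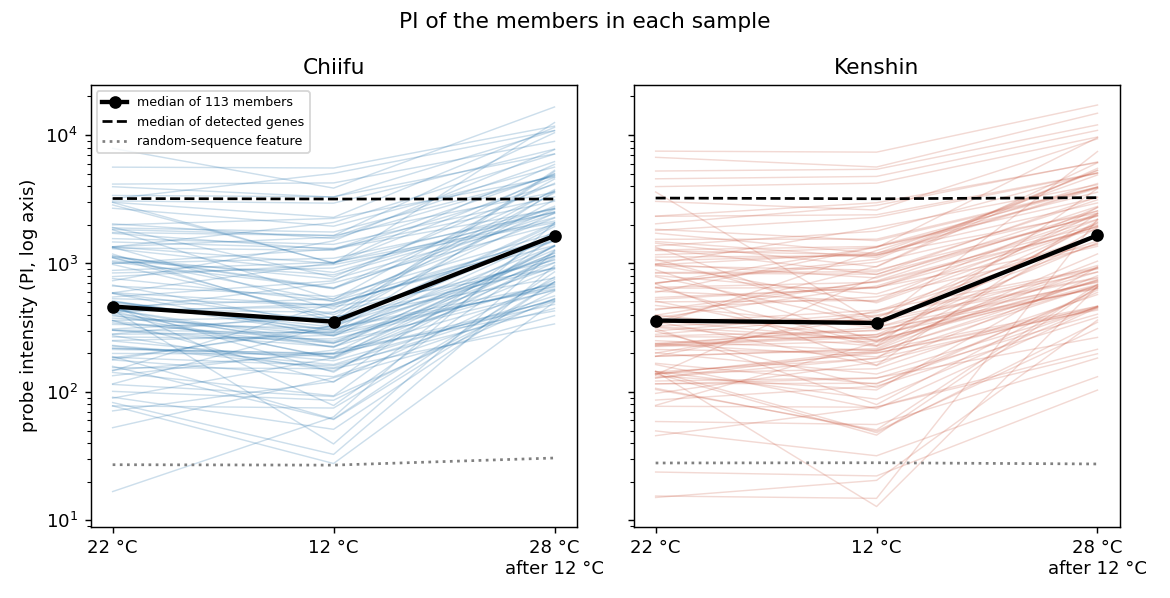
PI (log axis) of the 113 genes by temperature, with the 28 °C samples taken after the cold, in Chiifu (left) and Kenshin (right), with 1 thin line for each gene, the median of the genes (thick line), the median of all detected genes (dashed) and the control feature of random sequence (dotted). The median of the 113 genes went to 1642 in Chiifu and 1658 in Kenshin at 28 °C and stayed below that of the detected genes.

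The values that chose the genes are given as a description. Over the 113 genes the median ratio was 3.86 by warming and 2.85 by minor warming in Chiifu, and 3.36 and 3.13 in Kenshin. Of all detected genes, 6.96% rose at least 2-fold by warming and 5.69% by minor warming in Chiifu, and 7.26% and 6.27% did so in Kenshin. The smallest of the 4 ratios of a gene had a median of 2.37, and it lay under 2.5 for 67 genes and at 3 or above for 22 genes. Minor warming in Chiifu was the smallest ratio for 45 genes, minor warming in Kenshin for 28, warming in Kenshin for 24 and warming in Chiifu for 16. With 50 added to each intensity, which damps ratios between low values, 92 of the 113 genes kept all 4 ratios at 2 or above and 5 had all 4 at 4 or above. The added 50 told mainly on the 49 genes of low PI, of which 16 dropped under 2, with 5 of the 31 intermediate genes and none of the 33 that were over 500 throughout. The 33 genes had a median smallest ratio of 2.15, with 3 genes at 3 or above. The 49 genes had a median of 2.43, with 13 genes at 3 or above.

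Just inside the cutoff were Bra007882, with a smallest ratio of 2.001, Bra007420 with 2.005 and Bra012672 with 2.02. Just outside were Bra037563 with 1.996, Bra018581 with 1.994 and Bra030865 with 1.992. Genes on either side of the cutoff thus had nearly equal ratios.

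Ranked by the smallest ratio with 50 added, Bra013992 came first, with values from 18.6 to 34.9 over the 4 comparisons. In Chiifu its PI went from 16.7 (22 °C) to 63.8 (12 °C) and 2072 (28 °C), and the Kenshin values in this order, which is kept for the genes that follow, were 15.4, 14.8 and 2214. It was not above the random sequence at 22 °C in either line or at 12 °C in Kenshin, and stood near the same PI in both lines at 28 °C. Bra031312 was next, with PI of 82.6, 32.6 and 966 in Chiifu and 15.04, 20.5 and 363 in Kenshin. It too was not above the random sequence in Kenshin before 28 °C. It reached a PI over 500 in Chiifu alone.

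Bra024564 combined a large rise with a high level. Its PI was 1839, 1649.9 and 10434 in Chiifu, and 1171, 1327 and 9575 in Kenshin. The 4 ratios lay between 5.67 and 8.18, and the 4 samples before 28 °C were close together while both 28 °C samples stood apart from them. Adding 50 changed its ratios little, to between 5.55 and 7.88. Of the 33 genes over 500 in all samples it had the largest smallest ratio.

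Bra029842 had PI of 77.8, 74.8 and 786 in Chiifu, and 104, 50.6 and 690.2 in Kenshin. Bra004266 had PI of 89.4, 184 and 1013 in Chiifu and 235, 280 and 1456 in Kenshin. Both were under 500 before 28 °C in each line and over 500 after it. They differed in the step before, since the LT ratio of Bra004266 was 2.06 (Chiifu) and 1.19 (Kenshin), and that of Bra029842 was 0.962 and 0.485.

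The next 3 in the ranking were Bra007887, Bra008990 and Bra019500. PI of Bra007887 was 509, 279.7 and 1936 in Chiifu and 133, 103 and 938 in Kenshin, with the lower value in Kenshin at every temperature. Bra008990 had PI of 1113, 373 and 5318 in Chiifu and 1483, 1116 and 5340 in Kenshin. It fell by LT in Chiifu (ratio 0.335) more than in Kenshin (0.752), and the lines met at 28 °C. Bra019500 had PI of 281, 292 and 1150.3 in Chiifu and 189, 426 and 1675 in Kenshin. Its level at 12 °C was close to that at 22 °C in Chiifu and was 2.25 times that in Kenshin.

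**Figure D2:**
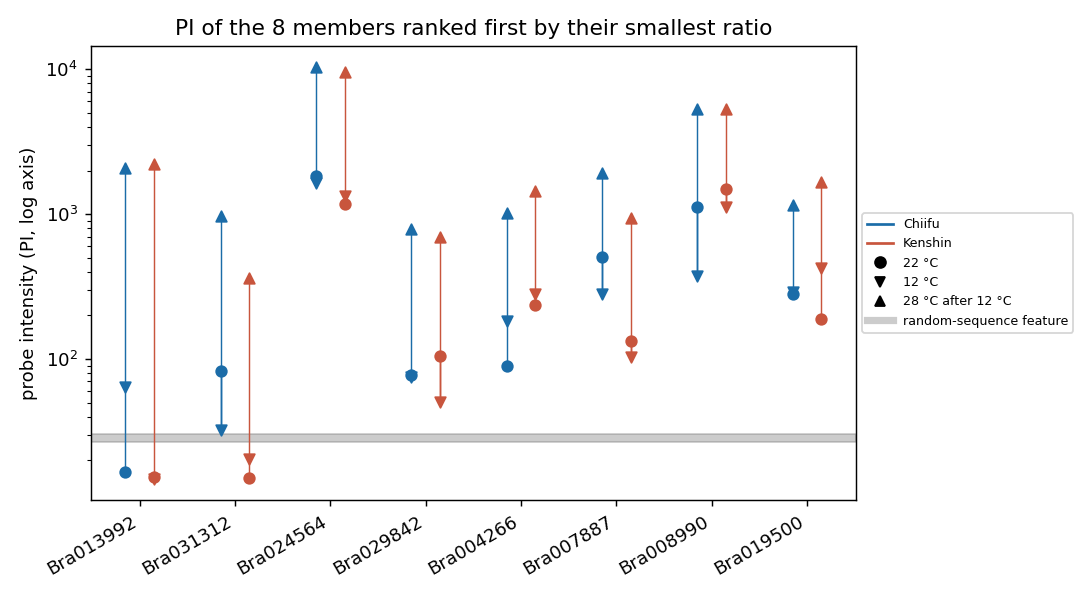
PI (log axis) of the 8 genes ranked first by their smallest ratio with 50 added, in Chiifu (blue) and Kenshin (red) at 22 °C (circles), 12 °C (downward triangles) and 28 °C after 12 °C (upward triangles), 1 sample each. The grey band is the range of the random-sequence feature, 26.9 to 30.5, below which Bra013992 lay in 3 samples and Bra031312 in 2.

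**Figure D3:**
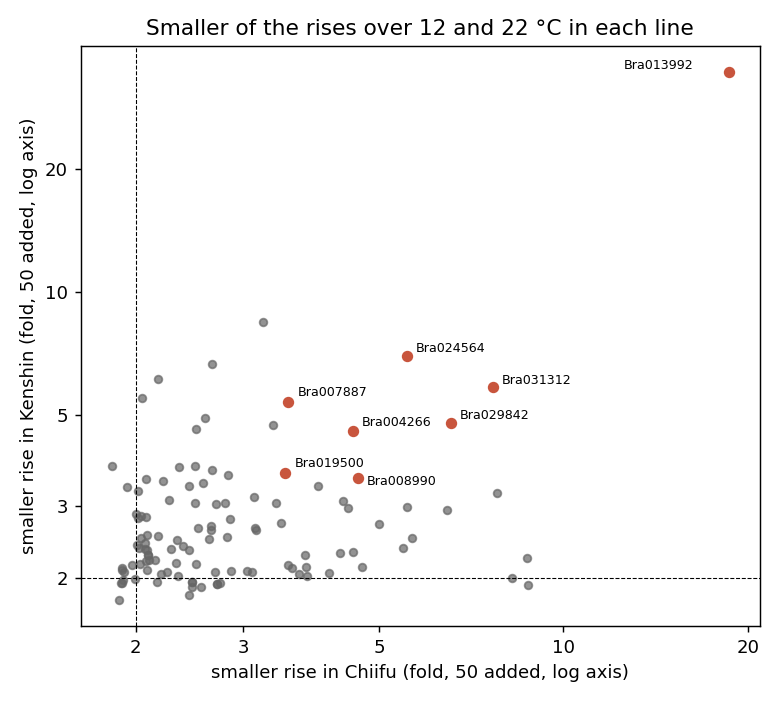
Smaller of the ratios of 28 °C to 12 °C and to 22 °C with 50 added, in Chiifu (horizontal, log axis) and Kenshin (vertical, log axis), with 1 point for each of the 113 genes and the 8 first-ranked genes named in red. Dashed lines mark the cutoff of 2, and the 21 points below or left of them passed the cutoff with nothing added.

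The 5 genes of highest PI at 28 °C had smallest ratios between 2.09 and 2.73. Bra008991 had PI of 7889, 3866 and 16567 in Chiifu, and 7505, 7369 and 17162 in Kenshin. Bra003300 had PI of 5631, 5546 and 11748 in Chiifu and 6716, 5644 and 14814 in Kenshin, and its ratios lay between 2.09 and 2.62. For both genes the PI before 28 °C was already 3866 or more in each sample.

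Bra034201, Bra017233 and Bra004309 followed. PI of Bra034201 was 3200.3, 5034 and 10866 in Chiifu and 5251, 5417 and 12018 in Kenshin. That of Bra017233 was 2999, 2287 and 11493 in Chiifu and 4568, 4768 and 10889 in Kenshin. Bra004309 had PI of 3964, 3289 and 10833 in Chiifu and 3047, 2608 and 9363 in Kenshin, with ratios between 2.73 and 3.59. At 28 °C Kenshin stood at 1.11, 0.947 and 0.864 times Chiifu for these 3 genes in turn.

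By LT, the ratio of 12 to 22 °C stayed under 2-fold in both lines in 72 of the 113 genes. In 31 it passed 2-fold in exactly 1 line. The shares of detected genes that match these 2 counts were not computed, and shares for each line are given below. The median ratio was 0.804 in Chiifu and 1.02 in Kenshin, against 0.986 and 1.01 over all detected genes. At least a 2-fold fall in both lines was found for 9 of the 113 genes, where 2.52% of all detected genes fell so. With 50 added it was found for 5. At least a 2-fold rise in both lines was found for none of them, where 2.05% of detected genes rose so. A fall at 12 °C raises the ratio of 28 to 12 °C that chose the genes. Neither these counts nor those below for each line are therefore independent of the choice. In Chiifu, 81 of the 113 genes (71.7%) had a ratio below 1, and 52.1% of detected genes did. In Kenshin, 52 genes (46%) did, and 48% of detected genes. Within Chiifu, 22 of the 113 genes fell at least 2-fold and 6 rose at least 2-fold (5.01% and 5.36% of detected genes). Within Kenshin, 17 fell and 6 rose by that much (6.99% and 5.8% of detected genes).

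In a limma fit of log2 PI with line as a block, 0 of 26948 genes reached a Benjamini-Hochberg adjusted p of 0.05 for LT, and the smallest adjusted p of the 113 genes was 0.124. At an unadjusted p under 0.05, 17 of them were lower and 6 were higher at 12 °C, where 7.29% of detected genes were lower and 5.43% higher. The choice of genes used the same samples, so these counts are a description and not independent of it. The fit had 2 samples per temperature and 2 residual degrees of freedom, and its scatter comes from unequal responses of Chiifu and Kenshin to temperature. Scaled on the marker features, the fit called 5 of the 113 genes, all lower, but it then estimated 1 common variance for all genes.

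Bra011776 had the lowest LT ratios in both lines with nothing added. Its PI was 436, 39.3 and 1245 in Chiifu and 144, 12.8 and 662 in Kenshin, where the cold value did not exceed the random sequence (28.0). Cold left 0.0901 of the 22 °C level in Chiifu and 0.0887 in Kenshin, but the Kenshin ratio rests on a value at background. With 50 added the ratios were 0.184 and 0.323. Genes that then lay lower in Kenshin included Bra014991 (0.108), Bra000184 (0.266), Bra040997 (0.285) and Bra024533 (0.314). The shared log2 change was -3.48 (adjusted p = 0.124, limma), and -2.04 with 50 added (adjusted p = 0.142, limma). After the 3 h at 28 °C its PI stood above that at 22 °C, 2.85-fold in Chiifu and 4.59-fold in Kenshin.

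Bra014991 and Bra040997 had the same course at higher levels. PI of Bra014991 was 2991, 1001 and 12523 in Chiifu and 3607, 344 and 7454 in Kenshin, which puts 28 °C at 12.5 and 21.7 times 12 °C. PI of Bra040997 was 1832, 525 and 4550.3 in Chiifu and 693, 161 and 2449 in Kenshin. The shared log2 changes by LT were -2.48 (adjusted p = 0.215, limma) and -1.95 (adjusted p = 0.17, limma). The other 6 genes that fell at least 2-fold by LT in both lines, named after their values had been seen, were Bra002696, Bra011879, Bra017617, Bra024533, Bra029137 and Bra031400. With 50 added, Bra011879, Bra017617, Bra029137 and Bra031400 no longer fell by that much in both lines. Over all 9 genes, PI at 28 °C was 2.07 to 6.45 times that at 22 °C in Chiifu and 2.07 to 5.88 times in Kenshin.

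The genes ranked highest by LT in both lines had ratios below 2 in at least 1 of them. Bra017927 had PI of 1346, 2087 and 7116 in Chiifu, and 704, 1079 and 5303 in Kenshin, and its LT ratios were 1.55 and 1.53. Bra038756 had PI of 282, 413 and 3549 in Chiifu and 331, 1262 and 4199 in Kenshin. Its LT ratios were 1.46 and 3.81. Bra021699 had PI of 433, 707 and 2008 in Chiifu and 139, 200.4 and 434 in Kenshin, with LT ratios of 1.63 and 1.45. None of the 3 passed the limma test for LT, with adjusted p between 0.359 and 0.382.

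**Figure D4:**
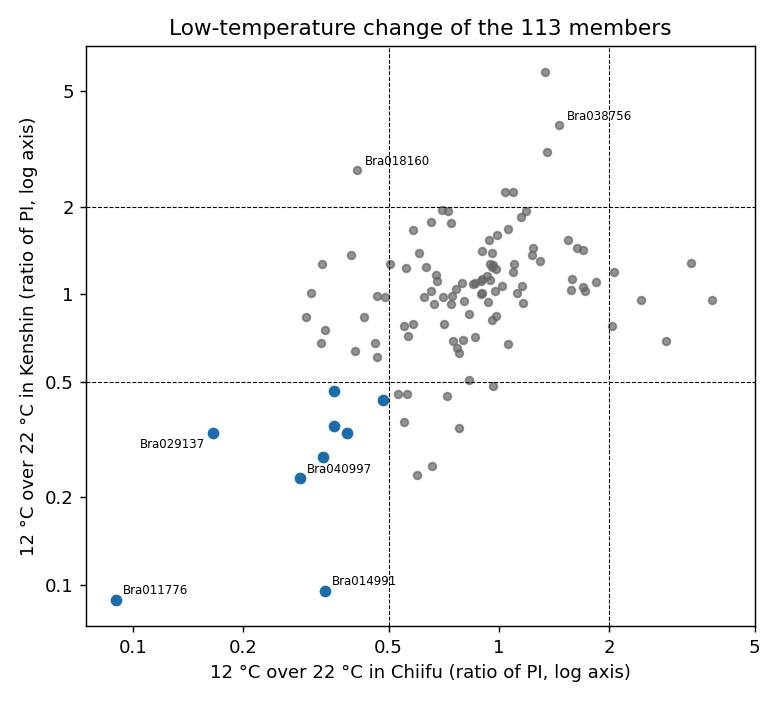
Ratio of PI at 12 °C to PI at 22 °C in Chiifu (horizontal, log axis) and Kenshin (vertical, log axis), with 1 point for each of the 113 genes and the 9 that fell at least 2-fold in both lines in blue. Dashed lines mark 2-fold changes; the upper right field is empty, and Bra018160 is the only point in the upper left field, with ratios of 0.411 and 2.67.

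The level of a gene in one line against the other was not a condition on temperature, but the lists left out had been chosen by the study partly for a higher level in Kenshin at 22 °C. Of the 29 genes left out, 25 were at least 2-fold higher in Kenshin at 22 °C. The counts that follow therefore lack genes that are high in Kenshin, and those at 22, 12 and 28 °C are also given with the 29 genes restored. At 22 °C, 7 of the 113 genes were at least 2-fold higher in Kenshin and 25 at least 2-fold higher in Chiifu, where 8.55% and 8.83% of detected genes were. Over all 142 genes the counts were 32 and 26. At 12 °C they were 13 and 20 of the 113, against 5.18% and 7.16% of detected genes, and 25 and 22 of the 142. At 28 °C the counts were 2 and 22 of the 113, against 10.3% and 8.28% of detected genes, and 17 and 22 of the 142. At all 3 temperatures, 1 of the 113 genes was at least 2-fold higher in Kenshin (2.01% of detected genes) and 9 in Chiifu (3.98%).

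The difference between the lines over the 3 temperatures was tested with limma on log2 PI, with temperature as a block and 3 samples per line. These were 1 sample at each temperature, which left 2 residual degrees of freedom. The scatter behind each SE and p-value is therefore the change of the line difference across temperatures, not a spread between replicates. Of the 113 genes, 14 passed an adjusted p of 0.05, which is 12.4%, against 6.56% of the 26948 detected genes. The intensity minimum could be passed through 1 line alone, which bears on this count. The choice also asked for a rise in both lines, which bears on the scatter of the fit. The count is thus not independent of the choice. At or under 500 in every Kenshin sample were 20 of the 113 genes (4.66% of detected genes), 6 of them among the 14. At or under 500 in every Chiifu sample were 5 (5.17% of detected genes), none among the 14. Of the 88 genes over 500 at 28 °C in both lines, 8 passed (9.09%), 7 of them lower in Kenshin (7.95%). Of all 22278 genes over 500 at 28 °C in both lines, 3.6% passed and 2.59% were lower. Of the 113 genes, 13 passed as lower in Kenshin (4.34% of detected genes) and 1 as higher (2.22%). Over all 142 genes, 14 were lower and 9 were higher. At an unadjusted p under 0.05, 27 of the 113 were lower (11.3% of detected genes) and 12 were higher (10.3%). The count was 4 without the 12 °C samples and 3 without the 22 °C samples, fits with 1 residual degree of freedom, and 7 without an intensity minimum. The probes were designed on the Chiifu sequence, and whether the Kenshin sequence differs under them was not tested.

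Bra006841 and Bra003978 had over 10-fold higher PI in Chiifu at each temperature. PI of Bra006841 was 417, 486 and 1485 in Chiifu, and 23.8, 22.1 and 103 in Kenshin, where the first 2 values were not above the random sequence. The log2 difference of Kenshin from Chiifu was -4.15 (SE 0.18, adjusted p = 0.0027, limma), but its size rests on those values at background and was -2.96 with 50 added (adjusted p = 0.00341, limma). PI of Bra003978 was 983, 397 and 2473 in Chiifu and 49.7, 31.8 and 131 in Kenshin, a log2 difference of -4.06 (SE 0.20, adjusted p = 0.00304, limma), or -3.21 with 50 added (adjusted p = 0.00911, limma). Both rose at least 2-fold in Kenshin as well, but from such low values that PI there stayed under 500. They thus passed the intensity minimum through Chiifu alone, and their line difference is not independent of the choice. With 50 added, the smallest ratio of Bra003978 was 1.82.

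Bra030442 was the one gene of the 14 that was higher in Kenshin. Its PI was 251, 276 and 667 in Chiifu, and 2340.2, 2974 and 6121 in Kenshin. The log2 difference was 3.28 (SE 0.15, adjusted p = 0.0027, limma). Kenshin was 9.17 to 10.8 times Chiifu at the 3 temperatures, and the ratio by warming was 2.42 in Chiifu and 2.06 in Kenshin. These 3 genes passed the threshold under each of the 9 alternative fits.

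Bra012948 and Bra012672 were next in Chiifu over Kenshin. PI of Bra012948 was 1893, 1759 and 4822 in Chiifu and 189, 218 and 1188 in Kenshin, and the gap narrowed from 10.01-fold at 22 °C to 4.06-fold at 28 °C. PI of Bra012672 was 359.8, 382 and 771 in Chiifu and 45.6, 76.3 and 215 in Kenshin. The log2 differences were -2.79 (SE 0.30, adjusted p = 0.0181, limma) and -2.38 (SE 0.26, adjusted p = 0.0186, limma). Bra012672 passed the intensity minimum through Chiifu alone, so its difference is not independent of the choice. The other 9 genes of the 14 were Bra003953, Bra007887, Bra011776, Bra012748, Bra015849, Bra016726, Bra021699, Bra026446 and Bra040997, of which some are named only because they passed, and their log2 differences lay between -1.06 and -1.89. Among genes higher in Kenshin, Bra036537, Bra015225 and Bra014185 did not pass, with adjusted p of 0.0955, 0.0584 and 0.0735 and log2 differences of 1.74, 0.99 and 0.79.

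**Figure D5:**
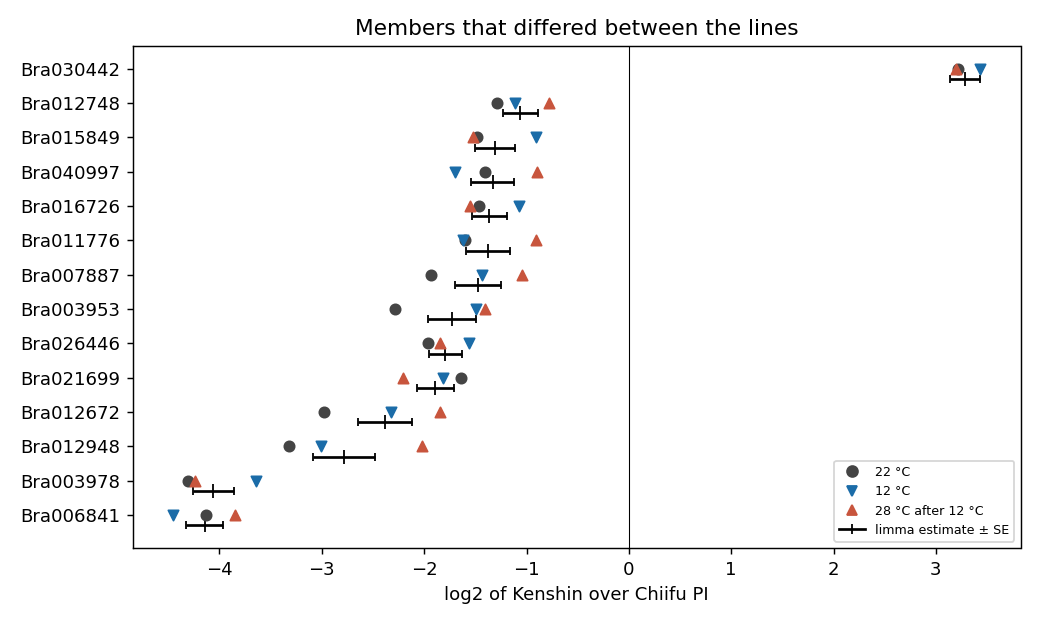
Log2 of PI in Kenshin over Chiifu for the 14 genes that passed the limma test of the line difference, at 22 °C (circles), 12 °C (downward triangles) and 28 °C after 12 °C (upward triangles), with the estimate and its standard error as a bar. Bra030442 lies at 3.28, and the other 13 lie between -4.15 and -1.06.

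The rise at 28 °C was compared between the lines as the log2 of PI at 28 °C minus the mean log2 of PI at 22 and 12 °C, with 50 added. Its median corresponds to 3.27-fold in Chiifu and 2.92-fold in Kenshin. It was at least 2 times larger in Kenshin for 3 of the genes and at least 2 times larger in Chiifu for 9, where 7.58% and 5.03% of detected genes were so. The choice of genes that rose in both lines limits these counts, and the difference between the lines could not be tested with 1 sample each.

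The 3 genes with the larger rise in Kenshin were lower there at 22 °C. Bra018160 had PI of 1910.5, 785 and 4215 in Chiifu, and 355, 949 and 6089 in Kenshin. Bra002696 had PI of 2859, 1011 and 5911 in Chiifu and 654, 230.2 and 3840.2 in Kenshin. Bra014066 had PI of 439, 221 and 1528 in Chiifu and 143, 182 and 1912 in Kenshin. The rises were 3.33, 3.39 and 4.33-fold in Chiifu, and larger than these by 1.53, 1.37 and 1.10 on the log2 scale in Kenshin. At 22 °C each of the 3 was at least 3-fold lower in Kenshin than in Chiifu. At 12 °C Bra002696 and Bra014066 were lower in Kenshin, and Bra018160 was higher, at 1.21 times Chiifu. The rise is taken over the 22 and 12 °C values, so a low level there enters the ranking.

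The reverse was seen in Bra040587, Bra000184 and Bra003883. PI of Bra040587 was 142, 93.1 and 1632 in Chiifu and 311, 79.6 and 644 in Kenshin. That of Bra000184 was 586, 352 and 5198 in Chiifu and 1341, 319 and 2733 in Kenshin. Bra003883 had PI of 375, 292 and 3655 in Chiifu and 1079, 375 and 2473 in Kenshin. All 3 were over 2-fold higher in Kenshin at 22 °C, and lower in Kenshin at 28 °C. In Kenshin they also fell over 2-fold by LT, with ratios of 0.256, 0.238 and 0.347, whereas the ratios in Chiifu were 0.657, 0.600 and 0.778.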

How the data were processed

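Cy3-labelled RNA of 6 shoot samples was hybridized to the Br135K 3′-tiling array. The authors deposited 1 linear intensity (PI) per gene, made from 3 overlapping probes of 60 bases. RMA is named in the submitters' processing notes without its role, and the normalization is otherwise not given in the sources used here. The deposited intensity values were used as they stand. Ratios had nothing added unless 50 is stated. The line difference and the LT change were fitted over all 26948 detected genes with limma 3.58.1 in R 4.3.3 (lmFit, eBayes, Benjamini-Hochberg), and the fit was tested on simulated data. Ratios, counts and plots came from pandas 2.3.3, matplotlib 3.10.9 and numpy 2.4.6 under Python 3.11.15. The labels do not say whether the samples are separate cultures. With 1 sample per line and temperature, p-values weigh a difference against how unequally the lines responded to temperature, not against a spread between replicates. They apply to these samples only, and the number of arrays limits precision.

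Genes were named as the 8 with the largest smallest ratio (50 added), the 5 highest at 28 °C, the 4 highest in each line over the other, the 3 most raised and 3 most lowered by LT, the 3 whose rise differed most in each direction, and the 3 on each side of the cutoff. Other named genes are marked. Members and rules were chosen with earlier results of these data known. The alternatives were 50 added, quantile normalization, median scaling, other intensity minimums, a fold cutoff of 3 and fits without a temperature. Keeping the listed genes and scaling on the marker features were added after seeing the data. Functional groups and promoter motifs were not used here, because 1 of the 41173 array identifiers, and none of the members, matched the RefSeq gene table (assembly CAAS_Brap_v3.01).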

Additional observations from a re-analysis of the deposited data

Results flagged for a closer look

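Bra018160 was the only one of the 113 genes that moved at least 2-fold by LT in opposite directions in the lines. Cold left it at 0.411 times its 22 °C level in Chiifu and took it to 2.67 times that level in Kenshin. This difference was not tested, since each line had 1 sample per temperature. The share of detected genes that moved by that much in opposite directions was not computed.

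The control features for transgene markers enter no comparison of genes. Of the 14, 12 read above the random-sequence feature in every sample, and 2 did not exceed it in any sample. There were 6 over 500 in at least 1 sample, and the highest value was 1517, in Chiifu at 28 °C.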

How the results depend on the processing

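The number of genes that met the temperature conditions outside the lists was 113 and stayed within 1.5 times of that with 50 added (92), quantile normalization (120), median scaling (125), a minimum of 1000 (83) and a minimum of 500 at 28 °C in both lines (88). Without an intensity minimum it was 176, and with a fold cutoff of 3 it was 22. Scaled on the median of the 12 marker features, it was 35, of which 33 were among the 113. That scaling lowers the 28 °C sample of Chiifu by a factor of 0.845 and raises its 22 °C sample by 1.49.

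The line difference was called for 14 of the 113 genes and 1768 of all genes. Without an intensity minimum the counts were 7 and 1091, and with the listed genes kept 23 of 142 were called. Leaving out 1 temperature gave 3 to 10 of the 113 genes and 460 to 1087 of all genes, with 1 residual degree of freedom. For LT, leaving out the 28 °C samples gave 0 of the 113 and 7 of all genes, against 0 in the fit of all samples. Scaled on the marker features, limma called 28 of the 113 and 2686 of all genes for the line difference and 5 and 761 for LT. It then estimated 1 common variance for all genes, and the median line difference of all genes moved from 0.06 to -0.31 on the log2 scale.

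With 50 added, 8 genes in place of 13 were at least 2-fold higher in Kenshin at 12 °C, and 5 in place of 9 fell at least 2-fold by LT in both lines. With the listed genes kept, 32, 25 and 17 were at least 2-fold higher in Kenshin at 22, 12 and 28 °C. With nothing added, the rise was at least 2 times larger in Kenshin for 5 genes in place of 3. For single genes, 35 of the values under alternatives no longer passed the threshold, 170 kept their direction and side of it, 4 passed it only when scaled on the marker features, and none reversed. Most of the 35 came from fits without a temperature. Samples could not be paired by replicate, because the labels give no replicate numbers for this. The fits block on temperature or on line, and so compare the lines at each temperature and the temperatures within each line.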

Other observations

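A total of 2 pairs of the 113 genes carry consecutive identifiers, which were noticed after their values had been seen, and whether the genes lie next to each other was not examined. Bra008990 and Bra008991 were both lower at 12 than at 22 °C in Chiifu, with ratios of 0.335 and 0.490, and less so in Kenshin, with ratios of 0.752 and 0.982. At 28 °C they were nearly equal between the lines, with Kenshin at 1.004 and 1.04 times Chiifu. Bra038755 and Bra038756 differed in their course. PI of Bra038755 was 188, 61.5 and 860.1 in Chiifu at 22, 12 and 28 °C and 202, 138 and 458 in Kenshin, with the lowest value at 12 °C in both lines, whereas PI of Bra038756 was lowest at 22 °C in both.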
